A study of Homo sapiens with 12 samples.

Results

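The genes described here are 32 genes of the ATF4 response and the unfolded protein response, taken by name from a fixed list of symbols. That list was chosen with earlier results of these data known, so shares of members that passed do not come from a list blind to the data. All 32 were measured, out of 18132 genes that the array could name. They fall into 6 roles: 5 transcription factors of the ATF4 branch, 5 stress effectors, 9 enzymes of amino acid, serine and one-carbon synthesis, 4 amino acid transporters, 7 chaperones and quality control proteins of the endoplasmic reticulum (ER), and 2 ER stress transcription factors.

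When unfolded proteins collect in the ER or amino acids run short, kinases phosphorylate the initiation factor eIF2 alpha, general translation slows, and the mRNA of ATF4 is translated more. ATF4 then binds composite C/EBP-ATF elements and induces genes of amino acid synthesis, uptake and stress. A separate arm, run by ATF6 and by XBP1 after its mRNA is spliced by IRE1, induces ER chaperones through ER stress response elements. Because ATF4 is controlled largely by translation, its mRNA level need not follow the amount or activity of the protein.

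The series set JQ1, an inhibitor that blocks BET bromodomain proteins from binding acetylated histones, against its solvent DMSO in Kelly and BE(2)-C, established human neuroblastoma cell lines that carry amplified MYCN. The 4 groups of 3 arrays were BE(2)-C with 1 µM JQ1, BE(2)-C with DMSO, Kelly with 1 µM JQ1 and Kelly with DMSO, all for 24 h. All groups were grown in the same serum-containing medium, and no amino acid shortage or ER stress agent was applied. Triplicates are given with no word on independent cultures, so every p-value here rests on variation among arrays that could be technical. In bulk RNA, fewer cells of a type and less RNA per cell cannot be told apart.

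To show the elements through which these roles are known to be controlled, 5 promoter windows are printed, from 250 bases before to 50 bases after the start site, taken from RefSeq on build GRCh38.p14 and written 5′ to 3′ on the strand of the gene. They are ASNS at chr7:97872359-97872658 on the minus strand, CHAC1 at chr15:40953221-40953520 on the plus strand, XBP1 at chr22:28800520-28800819 on the minus strand, HSPA5 at chr9:125241294-125241593 on the minus strand and SDF2L1 at chr22:21642052-21642351 on the plus strand. Capitals mark the composite C/EBP-ATF element in ASNS and CHAC1, the ER stress response element (ERSE) in XBP1 and HSPA5, and ERSE-II in SDF2L1.
ASNS: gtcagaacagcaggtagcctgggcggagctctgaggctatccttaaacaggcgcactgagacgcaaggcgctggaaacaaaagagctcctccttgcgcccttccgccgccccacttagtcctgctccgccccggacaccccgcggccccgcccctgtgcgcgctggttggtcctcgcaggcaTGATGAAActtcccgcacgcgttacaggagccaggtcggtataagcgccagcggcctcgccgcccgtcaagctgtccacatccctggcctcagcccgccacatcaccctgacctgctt
CHAC1: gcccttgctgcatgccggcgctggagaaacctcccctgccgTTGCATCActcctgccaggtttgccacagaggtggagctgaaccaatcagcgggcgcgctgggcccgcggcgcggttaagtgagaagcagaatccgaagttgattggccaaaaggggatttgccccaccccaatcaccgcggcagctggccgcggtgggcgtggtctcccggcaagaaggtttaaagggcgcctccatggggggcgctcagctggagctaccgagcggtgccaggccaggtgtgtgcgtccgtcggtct
XBP1: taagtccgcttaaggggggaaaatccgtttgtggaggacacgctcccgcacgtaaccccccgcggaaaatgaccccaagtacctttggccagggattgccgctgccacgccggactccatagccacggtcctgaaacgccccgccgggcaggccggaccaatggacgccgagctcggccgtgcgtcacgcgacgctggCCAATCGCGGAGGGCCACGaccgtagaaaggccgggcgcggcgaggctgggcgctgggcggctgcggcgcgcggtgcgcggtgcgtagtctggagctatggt
HSPA5: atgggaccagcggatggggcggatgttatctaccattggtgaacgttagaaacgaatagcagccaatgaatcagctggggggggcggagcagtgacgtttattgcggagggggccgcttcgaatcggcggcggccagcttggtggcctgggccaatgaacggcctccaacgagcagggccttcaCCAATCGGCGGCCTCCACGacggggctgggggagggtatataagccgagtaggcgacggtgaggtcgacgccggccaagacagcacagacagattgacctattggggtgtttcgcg
SDF2L1: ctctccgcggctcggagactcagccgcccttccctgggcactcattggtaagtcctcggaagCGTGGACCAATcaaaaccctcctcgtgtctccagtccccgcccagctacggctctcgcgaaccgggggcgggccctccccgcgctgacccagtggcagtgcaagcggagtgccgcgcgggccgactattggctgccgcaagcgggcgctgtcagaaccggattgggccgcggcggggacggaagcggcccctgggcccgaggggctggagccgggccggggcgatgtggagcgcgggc

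The composite element was searched as TGATGNAA, ERSE as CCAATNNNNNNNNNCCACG, ERSE-II as ATTGGNCCACG and the E-box, a site for MYC-family and other bHLH factors, as CACGTG, each on both strands. Windows were at hand for 27 members, 42 windows in all, and PSPH, SHMT2, ALDH1L2, PYCR1 and SLC7A11 had none. The counts that follow are of members with a match in any of their windows. The shares beside them are of single windows, so counts and shares are not in the same unit. The composite letters stood in windows of 7 members, ASNS, ATF3, CHAC1, CREB3L2, HERPUD1, SLC3A2 and SLC7A1, against 3.62% of all 35097 windows. ERSE stood in CALR, HSP90B1, HSPA5 and XBP1, against 0.0769% of all windows, and ERSE-II in HERPUD1 and SDF2L1, against 0.0541%. The E-box stood in 6 members, ASS1, ATF4, DNAJB9, HERPUD1, HSP90B1 and SLC7A5, against 7.25% of all windows. No match overlapped a match of another motif. In ASNS the composite element began 68 bases before the start site, in HSPA5 the ERSE 66 bases and in XBP1 52 bases before it. A match describes letters in this window and is neither a shown site nor a cause of any value below.

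Values are log2 of the deposited intensity, and a gene passed when its limma adjusted p, over all 18132 genes, was under 0.05. Arrays of 1 group correlated at 0.952 to 0.996 over all genes, and arrays of different lines at 0.88 to 0.956. HEXIM1, a gene known to rise under BET inhibition, rose by 2.22 ± 0.17 (SE) on the log2 scale in BE(2)-C (adjusted p = 2.81e-05) and by 1.43 ± 0.17 in Kelly (adjusted p = 0.000376), and MYCN, whose groups did not overlap in either line, fell by 0.34 over both lines (SE 0.09, adjusted p = 0.0307), a call kept in 11 of 20 alternatives. Neither line alone passed for MYCN (-0.33 ± 0.13 in BE(2)-C, adjusted p = 0.209; -0.34 ± 0.13 in Kelly, adjusted p = 0.136), though both did with the mean of its probe sets. Of 8 neuroblastoma markers 6 were measured, and all 6 lay above the median gene in all 4 groups. Markers of blood cells lay below it in all 4 groups (4 of 4 measured). Fibroblast and Schwann cell markers (6 of 7 measured) had a summed intensity of 314 to 383 in BE(2)-C with JQ1, against 538 to 583 in BE(2)-C with DMSO, and 386 to 401 in Kelly with JQ1, against 322 to 462 in Kelly with DMSO; their part in the results below was not tested. The signal of 9 probe sets for bacterial hybridization controls ran from 9.94 to 13.65 between arrays, with means of 11.41 in BE(2)-C with JQ1, 11.20 in BE(2)-C with DMSO, 12.94 in Kelly with JQ1 and 11.90 in Kelly with DMSO. The 3′ minus 5′ signal of ACTB, a sign of RNA quality, averaged 0.89 in BE(2)-C with JQ1, 0.91 in BE(2)-C with DMSO, 1.72 in Kelly with JQ1 and 1.67 in Kelly with DMSO on the log2 scale.

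Few members passed within a line, and more did over both lines. In BE(2)-C 3 of 32 members passed (9.38%), VLDLR upward and PYCR1 and SLC7A5 downward, where 4.69% of all genes passed, 2.18% upward and 2.51% downward. In Kelly 4 of 32 passed (12.5%), ATF5 upward and ASS1, PHGDH and XBP1 downward, where 6.5% of all genes passed, 1.76% upward and 4.73% downward. Averaged over both lines 12 passed (37.5%), 3 upward and 9 downward, where 11.1% of all genes passed, 4.02% upward and 7.04% downward. The median log2 fold change of the members was -0.07 in BE(2)-C and -0.31 in Kelly, against -0.01 and 0.08 for all genes. The JQ1 effect differed between the lines in 1 member, ASS1 (3.12%), where 0.557% of all genes differed. The 3 JQ1 arrays did not overlap the 3 DMSO arrays in 15 of 32 members in BE(2)-C, 5 higher and 10 lower, where 22.2% of all genes did not overlap, 11.5% higher and 10.7% lower. In Kelly 11 of 32 did not overlap, 3 higher and 8 lower, where 23.7% of all genes did not, 12.1% higher and 11.6% lower.

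Single arrays moved these counts. The BE(2)-C count was 1 without BE(2)-C DMSO replicate 2, any of the 3 BE(2)-C JQ1 replicates, Kelly DMSO replicate 1 or Kelly JQ1 replicate 2, where 1.78% to 3.94% of all genes passed, and 5 without Kelly JQ1 replicate 3, where 6.67% did; arrays of Kelly bear on it because all groups share 1 estimate of the spread. The Kelly count was 1 without Kelly DMSO replicate 1 (3.33% of all genes passed), 2 without Kelly DMSO replicate 2 (3.75%) and 11 without Kelly DMSO replicate 3 (2168 of 18132 genes, against 1178 with all arrays). The count over both lines was 6 without BE(2)-C JQ1 replicate 1 (7.5% of all genes) or without Kelly DMSO replicate 1 (7.79%). Fits that take the hybridization control signal into account moved them too. With it as a covariate 9 members passed in BE(2)-C (15.2% of all genes), 12 in Kelly (12.6%), 2 for the difference between the lines (3.78%) and 11 under DMSO (26.5%). Leaving out the 3 arrays where it was highest gave 9 in BE(2)-C (14.1%), 14 in Kelly (24.8%), 2 for the difference (2.52%) and 11 under DMSO (22.5%). In each of these fits the count over all genes moved the same way as that of the members.

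**Figure D1:**
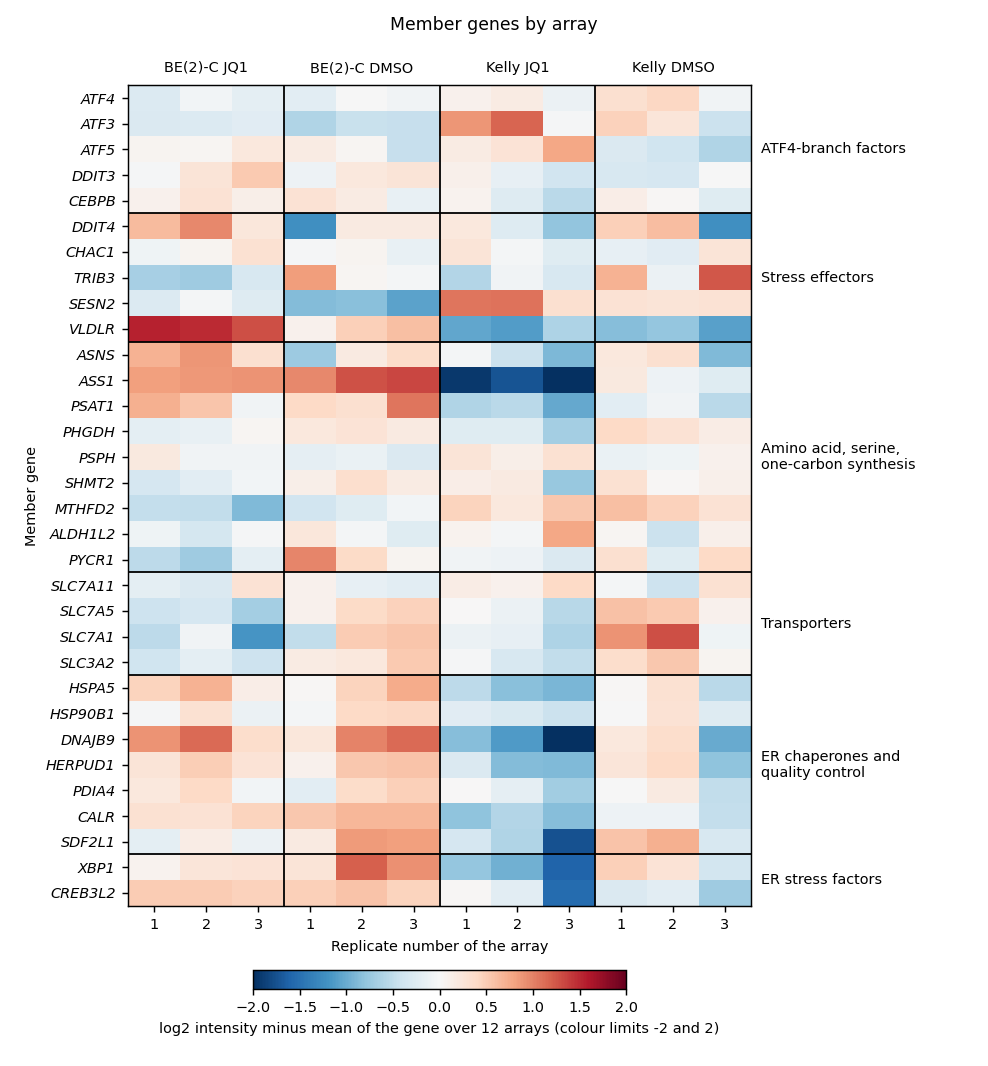
Heat map of the 32 member genes (rows, by role) on the 12 arrays (columns, by group and replicate number). Colour is log2 intensity minus the gene's mean over the 12 arrays; ASS1 is lowest in the 3 Kelly JQ1 arrays (7.73 to 8.35), and the ER genes are lowest in Kelly JQ1 replicate 3.

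**Figure D2:**
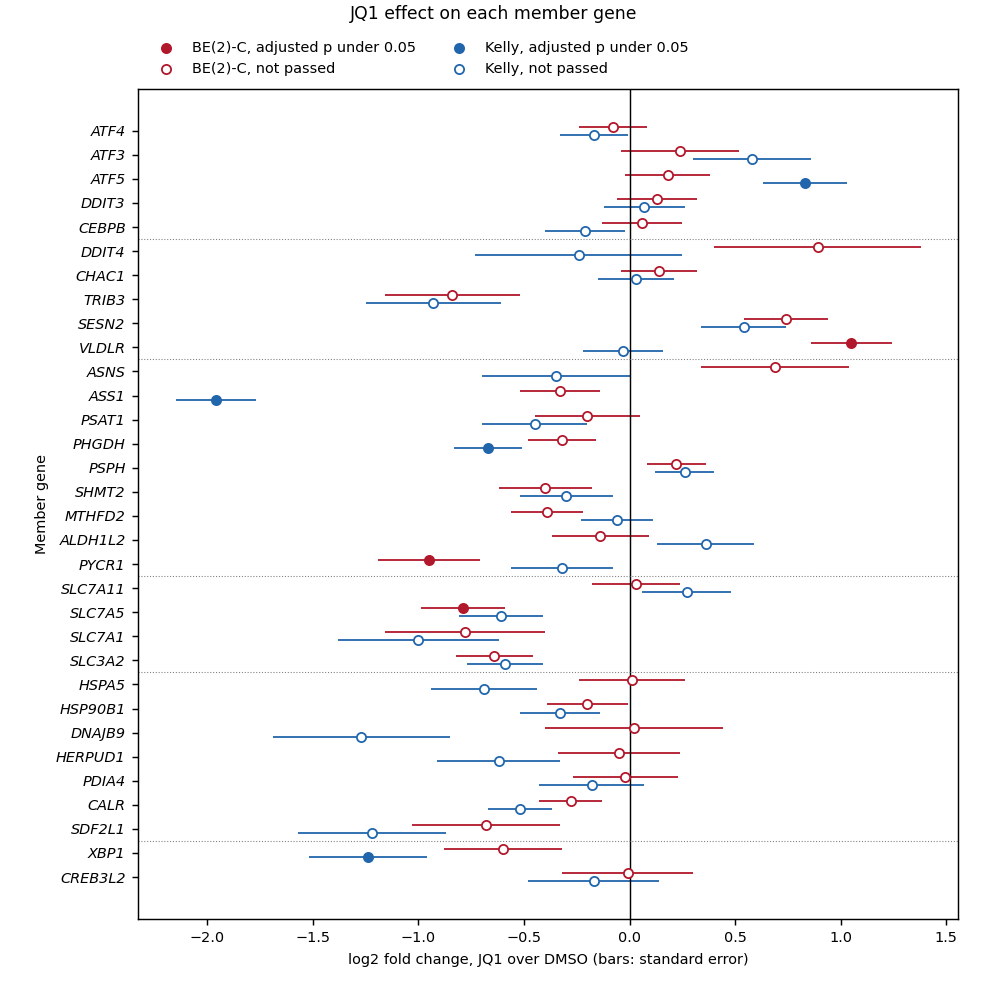
Log2 fold change of JQ1 over DMSO for each member (points) with its standard error (bars), BE(2)-C in red and Kelly in blue, filled where the gene passed. Of the values plotted, each from the gene's brightest probe set, ASS1 in Kelly lies farthest from 0 (-1.96), and VLDLR passed in BE(2)-C (1.05, against -0.03 in Kelly, with an adjusted p of 0.125 for that difference).

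Among the transcription factors of the ATF4 branch, ATF5 rose in Kelly and no other factor passed in either line. ATF4, the factor that names the response, had 11.88, 12.10 and 11.97 in BE(2)-C with JQ1, against 11.95, 12.16 and 12.09 with DMSO. The Kelly arrays had 12.25, 12.33 and 12.05 with JQ1, against 12.48, 12.58 and 12.09 with DMSO. The groups overlapped in both lines. The log2 fold change of ATF4 was -0.08 in BE(2)-C (95% interval -0.43 to 0.27, adjusted p = 1.0) and -0.17 in Kelly (-0.53 to 0.18, adjusted p = 0.525), and it passed in none of 21 alternatives in either line.

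ATF5, a bZIP factor made under stress, had 6.38, 6.49 and 6.99 in Kelly with JQ1, against 5.92, 5.82 and 5.61 with DMSO. The BE(2)-C arrays had 6.27, 6.25 and 6.42 with JQ1, against 6.38, 6.25 and 5.75 with DMSO. The Kelly groups did not overlap and the BE(2)-C groups did. All 4 probe sets of ATF5 were above 0 in Kelly, from 0.22 to 0.83, but only 2 of them passed. The second brightest, nearly as bright as the one used, gave 0.22 there (adjusted p over all probe sets 0.512). ATF5 was dim, with group means of 5.78 to 6.62, against a median of 6.64 over genes and arrays. Its rise in Kelly was 0.83 ± 0.20 (adjusted p = 0.0282), and the call was lost with the replicate number as a block (adjusted p = 0.052) and with only the Kelly arrays fitted (0.0866). Leaving out any 1 of the 3 Kelly DMSO arrays, or replicate 2 or 3 of Kelly JQ1, ended it too, with adjusted p of 0.051 to 0.0908. Averaged over the lines ATF5 rose by 0.51 ± 0.14 (adjusted p = 0.0383; 0.0726 with the block and 0.0535 with a trended, robust prior), and 2 of 12 fits that left out 1 array kept that call, those without BE(2)-C DMSO replicate 1 and without Kelly JQ1 replicate 1, while the others gave 0.0579 to 0.0921.

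ATF3, which is induced by ATF4 and by other stresses, had 7.95, 8.24 and 7.05 in Kelly with JQ1, against 7.54, 7.32 and 6.64 with DMSO, with overlapping groups and a log2 fold change of 0.58 ± 0.28 (adjusted p = 0.246), and 0.24 ± 0.28 in BE(2)-C (adjusted p = 0.951). DDIT3, which encodes the pro-apoptotic factor CHOP, differed by 0.13 (95% interval -0.28 to 0.55) in BE(2)-C and by 0.07 (-0.34 to 0.49) in Kelly. CEBPB, a bZIP partner of ATF4, differed by 0.06 (-0.35 to 0.46) in BE(2)-C and by -0.21 (-0.62 to 0.20) in Kelly. These intervals leave out a 2-fold change in the array signal of DDIT3 and of CEBPB in either direction. DDIT3 was dim, with group means of 5.21 to 5.68, against a median of 6.64 over genes and arrays. Its interval therefore concerns the signal and does not exclude a 2-fold change of the transcript.

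The stress effectors moved in both directions. VLDLR, a lipoprotein receptor that ATF4 can induce, rose in BE(2)-C; SESN2, which restrains mTORC1 and senses leucine, rose over both lines; and TRIB3, a pseudokinase that restrains ATF4, fell over both lines. The log2 intensity of VLDLR was 7.91, 7.87 and 7.66 in BE(2)-C with JQ1, against 6.46, 6.85 and 6.97 with DMSO. In Kelly VLDLR had 5.33, 5.25 and 5.76 with JQ1, against 5.52, 5.60 and 5.29 with DMSO. Groups stood well apart in BE(2)-C and overlapped in Kelly. The Kelly arrays lay below the median of 6.64 over genes and arrays, so the change in Kelly was read on dim values. An alternative that filtered out dim genes removed VLDLR. VLDLR rose by 1.05 ± 0.19 in BE(2)-C (adjusted p = 0.00666), a call kept in all 20 alternatives that could be fitted, and differed by -0.03 ± 0.19 in Kelly (adjusted p = 0.947). The difference of these effects, 1.08 ± 0.27, did not pass (adjusted p = 0.125), though it passed in 2 alternatives. Over both lines VLDLR rose by 0.51 ± 0.13 (adjusted p = 0.0245; 0.0569 with the replicate block and 0.0781 after quantile normalization), a call that ended without BE(2)-C JQ1 replicate 1 (0.0717) or 2 (0.0628) or Kelly DMSO replicate 1 (0.0545).

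SESN2 had 7.49, 7.72 and 7.50 in BE(2)-C with JQ1, against 6.89, 6.92 and 6.68 with DMSO. Kelly cells had 8.83, 8.84 and 8.08 with JQ1, against 8.05, 8.02 and 8.05 with DMSO. The groups did not overlap in either line, with Kelly JQ1 replicate 3 just above the DMSO arrays. Averaged over the lines SESN2 rose by 0.64 ± 0.14 (adjusted p = 0.0093), a call kept in all 20 alternatives, while neither line alone passed (adjusted p = 0.0522 in BE(2)-C and 0.127 in Kelly).

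TRIB3 had 6.99, 6.95 and 7.33 in BE(2)-C with JQ1, against 8.49, 7.70 and 7.62 with DMSO. Its Kelly values were 7.06, 7.59 and 7.34 with JQ1, against 8.35, 7.53 and 8.89 with DMSO. Groups did not overlap in BE(2)-C, and in Kelly 1 DMSO array lay within the JQ1 range. Averaged over the lines TRIB3 fell by 0.89 on the log2 scale (SE 0.22, adjusted p = 0.0226), and the call was lost without BE(2)-C JQ1 replicate 1 or 2, Kelly DMSO replicate 1 or Kelly JQ1 replicate 1 (adjusted p = 0.0563 to 0.061), after quantile normalization (0.0579) and with the mean of its probe sets (-0.36, adjusted p = 0.414). A dimmer probe set of TRIB3 gave -0.36 in BE(2)-C and 0.69 in Kelly, so its probe sets disagree in Kelly.

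CHAC1, which degrades glutathione and is a sensitive target of ATF4, differed by 0.14 (95% interval -0.27 to 0.54) in BE(2)-C and by 0.03 (-0.37 to 0.43) in Kelly. DDIT4, an inhibitor of mTORC1 signalling, had 9.11, 9.45 and 8.71 in BE(2)-C with JQ1, against 7.26, 8.66 and 8.66 with DMSO. Those groups did not overlap, and BE(2)-C DMSO replicate 1 was the lowest array. Its log2 fold change was 0.89 ± 0.49 in BE(2)-C (adjusted p = 0.466) and -0.24 ± 0.49 in Kelly (adjusted p = 0.783). Without that array DDIT4 was at 0.43 in BE(2)-C.

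Among the genes of amino acid, serine and one-carbon synthesis, ASS1 fell most, in Kelly. In that line 2 of 9 enzymes fell, where 4.73% of all genes did, and in BE(2)-C 1 of 9 fell, where 2.51% did. None of the 9 rose in either line, and their median was -0.32 in each line. ASS1, which makes argininosuccinate for arginine synthesis, had 8.16, 8.35 and 7.73 in Kelly with JQ1, against 10.28, 9.99 and 9.84 with DMSO. BE(2)-C cells had 10.90, 10.95 and 10.99 with JQ1, against 11.05, 11.35 and 11.42 with DMSO. The groups did not overlap in either line, and the gap in Kelly was far wider than the spread between arrays. ASS1 was 3.89-fold lower with JQ1 in Kelly (log2 -1.96 ± 0.19, adjusted p = 6.74e-05), a call kept in all 21 alternatives, and differed by -0.33 ± 0.19 in BE(2)-C (adjusted p = 0.511). Its second probe set gave -1.87 in Kelly and -0.44 in BE(2)-C.

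The JQ1 effect on ASS1 in BE(2)-C minus that in Kelly was 1.63 ± 0.26 (adjusted p = 0.0155). That call was lost without BE(2)-C JQ1 replicate 1 (adjusted p = 0.0549), 2 (0.0557) or 3 (0.0554) and without Kelly DMSO replicate 1 (0.0622), with a difference between 1.51 and 1.66 in these 4 fits.

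PHGDH, the first enzyme of serine synthesis, had 10.72, 10.72 and 10.28 in Kelly with JQ1, against 11.37, 11.26 and 11.11 with DMSO. In BE(2)-C it had 10.77, 10.82 and 11.00 with JQ1, against 11.17, 11.24 and 11.14 with DMSO. The groups did not overlap in either line. PHGDH fell by 0.67 on the log2 scale in Kelly (SE 0.16, adjusted p = 0.0242), which was lost without Kelly DMSO replicate 1 (0.117) or 2 (0.0802) or Kelly JQ1 replicate 3 (0.0595) and with only the Kelly arrays fitted (0.127), and by 0.49 over both lines (SE 0.11, adjusted p = 0.0126), which held in all 20 alternatives.

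The next enzymes of the serine route did not pass on their brightest probe sets. PSAT1 differed by -0.20 ± 0.25 in BE(2)-C and -0.45 ± 0.25 in Kelly, and PSPH by 0.22 ± 0.14 in BE(2)-C and 0.26 ± 0.14 in Kelly. PSPH groups did not overlap in either line, with JQ1 above DMSO, but its probe sets disagree. The second brightest gave 0.67 in BE(2)-C and -0.61 in Kelly (adjusted p over all probe sets 0.68 and 0.414). The dimmest PSPH probe set rose by 1.0 in BE(2)-C (0.025) and gave 0.30 in Kelly (0.428), and with the mean of the 3 probe sets PSPH rose in BE(2)-C (0.63, adjusted p = 0.0171).

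PYCR1, the last enzyme of proline synthesis, had 9.13, 8.94 and 9.46 in BE(2)-C with JQ1, against 10.63, 10.04 and 9.71 with DMSO. In Kelly it had 9.58, 9.56 and 9.36 with JQ1, against 9.97, 9.42 and 10.06 with DMSO. The BE(2)-C groups did not overlap and the Kelly groups did. PYCR1 was 1.93-fold lower with JQ1 in BE(2)-C (log2 -0.95 ± 0.24, adjusted p = 0.0449), close to the threshold: the call was lost without any 1 of the BE(2)-C JQ1 replicates, BE(2)-C DMSO replicate 1 or 2, Kelly DMSO replicate 1 or Kelly JQ1 replicate 1 or 2 (adjusted p = 0.0599 to 0.185), and with quantile normalization (0.082), only the BE(2)-C arrays fitted (0.0849) or the replicate block (0.0685). Averaged over the lines it fell by 0.63 (SE 0.17, adjusted p = 0.0324), which 4 of 12 fits without 1 array kept, those without Kelly DMSO replicate 2 and without BE(2)-C DMSO replicate 1 or 3 or BE(2)-C JQ1 replicate 3; the others gave 0.0529 to 0.0876. The averaged PYCR1 call was also lost with quantile normalization (-0.56, adjusted p = 0.101), with the mean of probe sets (-0.46, 0.0506) and without the 3 arrays of highest control signal (-0.41, 0.0546). All 6 of its probe sets were below 0 in BE(2)-C, from -0.06 to -1.20.

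ASNS, which makes asparagine and is a standard readout of ATF4, had 11.39, 11.58 and 11.02 in BE(2)-C with JQ1, against 9.97, 10.87 and 11.07 with DMSO. The Kelly arrays had 10.65, 10.26 and 9.80 with JQ1, against 10.90, 11.02 and 9.82 with DMSO. The groups overlapped in both lines, and ASNS did not pass (0.69 ± 0.35 in BE(2)-C, adjusted p = 0.412; -0.35 ± 0.35 in Kelly, adjusted p = 0.562). Without BE(2)-C DMSO replicate 1, the lowest of these arrays, ASNS was at 0.36 in BE(2)-C (adjusted p = 0.796). With the hybridization control signal as a covariate it passed there (0.77, adjusted p = 0.00304), the 1 alternative of 21 in which it did.

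The mitochondrial one-carbon enzymes did not pass for JQ1 in either line. SHMT2, which takes a carbon unit from serine, differed by -0.40 ± 0.22 in BE(2)-C and -0.30 ± 0.22 in Kelly. MTHFD2, the next enzyme, differed by -0.39 ± 0.17 in BE(2)-C and -0.06 ± 0.17 in Kelly, and its 5 probe sets gave -0.39 to -0.66 in BE(2)-C. ALDH1L2 differed by -0.14 ± 0.23 in BE(2)-C and 0.36 ± 0.23 in Kelly.

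On their brightest probe sets 3 of 4 transporters were lower with JQ1 in both lines, and 2 passed over both lines, where 7.04% of all genes fell. SLC7A5 and SLC3A2 are the light and heavy chain of the LAT1 exchanger for large neutral amino acids, and these are the 2 that fell. SLC7A5 had 8.23, 8.31 and 7.97 in BE(2)-C with JQ1, against 8.73, 9.03 and 9.11 with DMSO. In Kelly SLC7A5 had 8.66, 8.54 and 8.09 with JQ1, against 9.23, 9.17 and 8.73 with DMSO. Its groups did not overlap in either line. SLC7A5 fell by 0.70 over both lines (SE 0.14, adjusted p = 0.00618), which held in all 20 alternatives. Within lines it fell in BE(2)-C (-0.79 ± 0.20, adjusted p = 0.0427) and did not pass in Kelly (-0.61 ± 0.20, adjusted p = 0.0933); the difference of the effects was -0.17 (95% interval -0.79 to 0.44). The BE(2)-C call was lost without any 1 of the BE(2)-C JQ1 replicates, BE(2)-C DMSO replicate 2 or 3, Kelly DMSO replicate 1 or 2 or Kelly JQ1 replicate 2 (adjusted p = 0.0501 to 0.158), and with a trended, robust prior (0.0645). A dimmer probe set of SLC7A5 gave -0.31 in BE(2)-C and 0.33 in Kelly, against these values.

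SLC3A2 had 8.89, 9.09 and 8.88 in BE(2)-C with JQ1, against 9.46, 9.50 and 9.81 with DMSO. Kelly cells had 9.26, 8.97 and 8.79 with JQ1, against 9.64, 9.83 and 9.34 with DMSO. The groups did not overlap in either line. SLC3A2 fell by 0.62 over both lines (SE 0.13, adjusted p = 0.00728), which held in all 20 alternatives, with -0.64 ± 0.18 in BE(2)-C (adjusted p = 0.0683) and -0.59 ± 0.18 in Kelly (adjusted p = 0.0732). All 7 of its probe sets were below 0 in both lines.

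SLC7A1, the cationic amino acid transporter that takes up arginine, had 7.95, 8.41 and 7.30 in BE(2)-C with JQ1, against 7.99, 8.98 and 9.04 with DMSO. Its Kelly values were 8.36, 8.32 and 7.86 with JQ1, against 9.37, 9.77 and 8.40 with DMSO. The Kelly groups did not overlap by a narrow margin, and the BE(2)-C groups overlapped. Its log2 fold change was -0.78 ± 0.38 in BE(2)-C (adjusted p = 0.373) and -1.0 ± 0.38 in Kelly (adjusted p = 0.143). Over both lines it was -0.89 ± 0.27 (adjusted p = 0.0518, and 0.0235 with the replicate block), and 10 of 20 alternatives passed. Of its 4 probe sets 2 fell in BE(2)-C and 0 passed in Kelly. These 2 gave -0.88 (adjusted p over all probe sets 0.0496) and -0.62 (0.0296) in BE(2)-C. Over both lines they gave -0.77 (0.0081) and -0.44 (0.014).

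SLC7A11, the cystine and glutamate exchanger, has no single value on this array. Its brightest probe set, which was used for the counts, gave 0.03 ± 0.21 in BE(2)-C and 0.27 ± 0.21 in Kelly (adjusted p = 1.0 and 0.457). Its second probe set gave -1.16 in BE(2)-C (adjusted p over all probe sets 0.0149) and -2.18 in Kelly (0.000197), and the dimmest gave -0.74 in BE(2)-C (0.116) and -0.91 in Kelly (0.0378). The mean of the probe sets fell in both lines (-0.62 in BE(2)-C, adjusted p = 0.0358; -0.94 in Kelly, adjusted p = 0.0031), against the sign of the brightest. Which of them reads the transcript best was not tested.

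**Figure D3:**
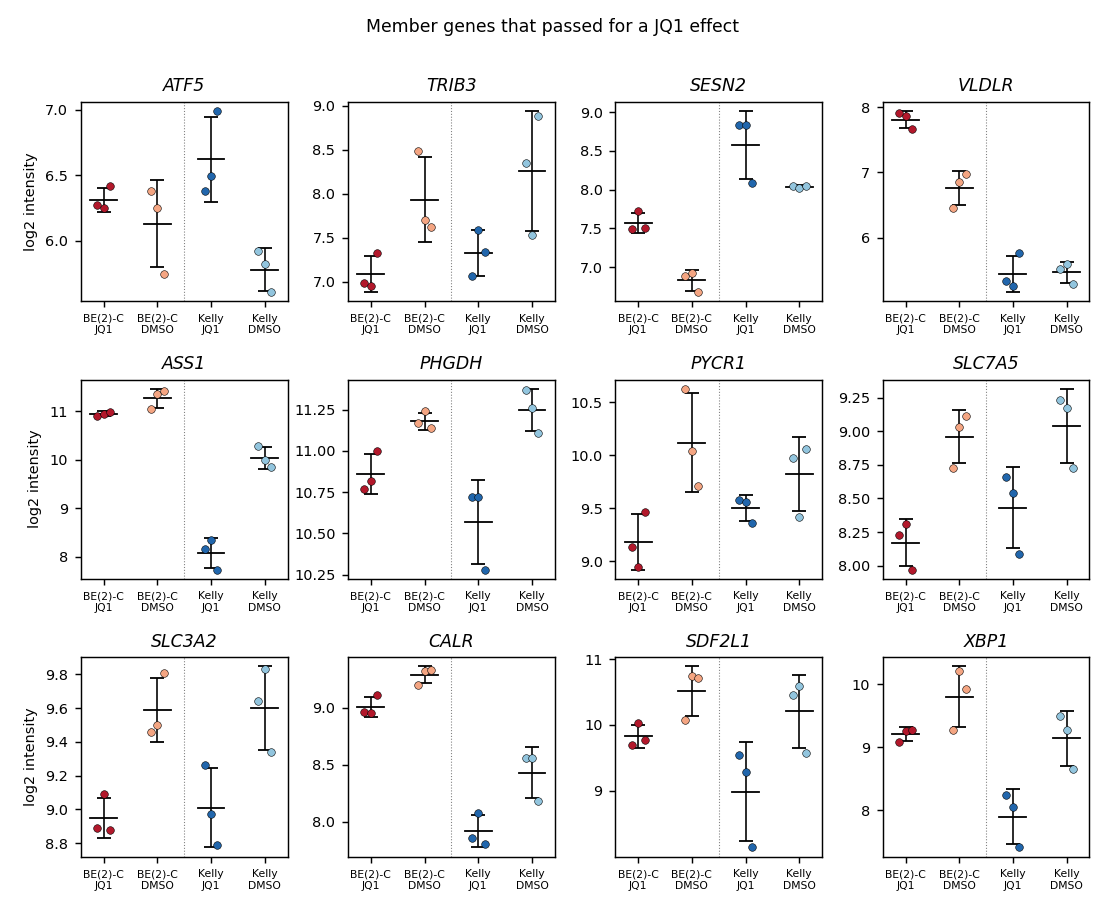
Log2 intensity of the 12 members that passed for JQ1 in a line or over both lines, by group (points, arrays; long bars, means; whiskers, SD, n = 3). SESN2, ASS1, PHGDH, SLC7A5, SLC3A2, CALR and SDF2L1 do not overlap between JQ1 and DMSO in either line.

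**Figure D4:**
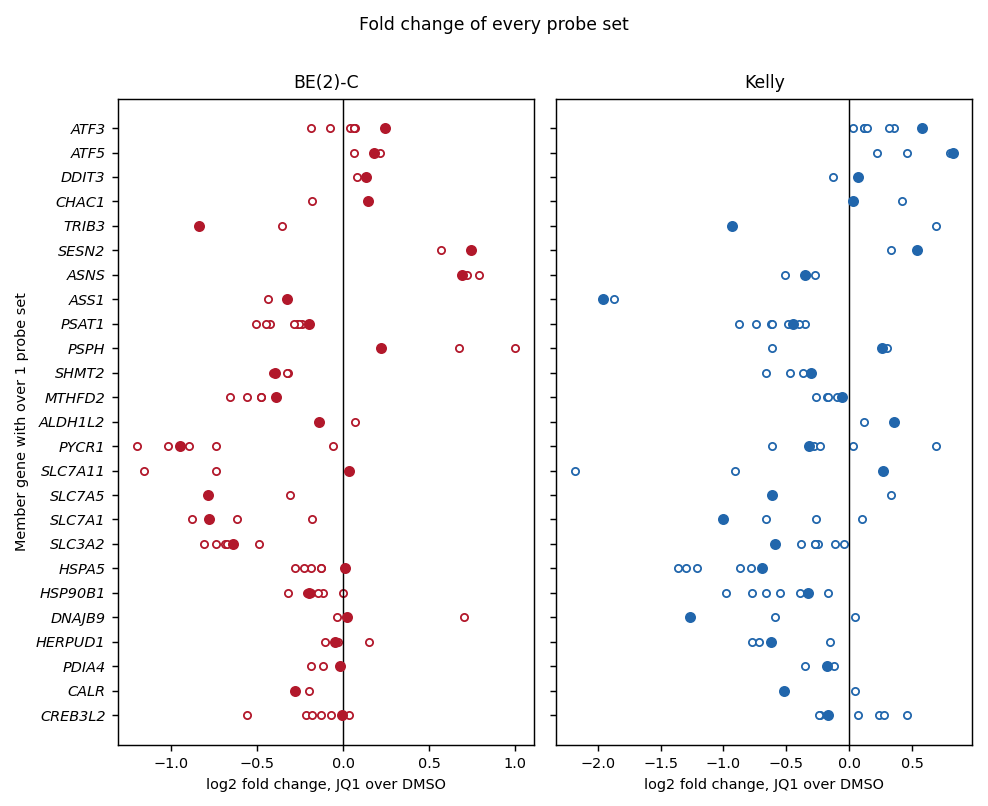
Log2 fold change of every probe set of the members with more than 1 (filled, the brightest, which was used; open, the others), BE(2)-C left and Kelly right. SLC7A11 spans 0.27 to -2.18 in Kelly, whereas all 6 HSPA5 probe sets lie between -0.69 and -1.36 there.

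Of the 7 ER chaperones and quality control genes, 5 lay below 0 in BE(2)-C with JQ1 against DMSO and 7 in Kelly. Within either line 0 passed, and CALR and SDF2L1 fell over both lines, where 7.04% of all genes fell. With the replicate number as a block 2 of 7 fell in Kelly, DNAJB9 and SDF2L1, where 6.14% of all genes fell. The difference between the lines passed for 0 of 7 (0 at an unadjusted limma p under 0.05). At an unadjusted limma p under 0.05, 0 of 7 were lower in BE(2)-C and 4 of 7 were lower in Kelly, where 2219 of the 18132 genes were. The median of the 7 was -0.05 in BE(2)-C and -0.62 in Kelly. HSPA5, the ER chaperone BiP, had 12.37, 12.61 and 12.06 in BE(2)-C with JQ1, against 11.95, 12.37 and 12.67 with DMSO. In Kelly it had 11.39, 11.09 and 11.00 with JQ1, against 11.94, 12.22 and 11.38 with DMSO. The groups overlapped in BE(2)-C, and in Kelly 1 DMSO array, replicate 3, lay inside the JQ1 range. HSPA5 differed by 0.01 (95% interval -0.52 to 0.55) in BE(2)-C and by -0.69 (-1.22 to -0.15, adjusted p = 0.124) in Kelly. Its 6 probe sets all lay below 0 in Kelly, from -0.69 to -1.36.

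DNAJB9, a co-chaperone of HSPA5, had 7.20, 6.91 and 5.75 in Kelly with JQ1, against 8.25, 8.39 and 7.03 with DMSO. Replicate 3 was lowest in both groups, so the groups overlapped although every JQ1 array was below the DMSO array of the same number. Its log2 fold change was -1.27 ± 0.42 in Kelly (adjusted p = 0.0981; 0.0159 with the replicate block) and 0.02 ± 0.42 in BE(2)-C, and the difference did not pass (1.29 ± 0.60, adjusted p = 0.443).

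SDF2L1, a partner of the HSPA5 complex whose promoter window holds ERSE-II, had 9.69, 10.03 and 9.77 in BE(2)-C with JQ1, against 10.07, 10.74 and 10.71 with DMSO. The Kelly arrays had 9.55, 9.29 and 8.14 with JQ1, against 10.46, 10.59 and 9.57 with DMSO. The groups did not overlap in either line, by a narrow margin in each. SDF2L1 fell by 0.95 over both lines (SE 0.25, adjusted p = 0.0282), with -0.68 ± 0.35 in BE(2)-C (adjusted p = 0.435) and -1.22 ± 0.35 in Kelly (adjusted p = 0.0621; 0.00404 with the block). The call over both lines was lost without BE(2)-C DMSO replicate 2 or 3, BE(2)-C JQ1 replicate 1 or 3 or Kelly DMSO replicate 1 or 2 (adjusted p = 0.0654 to 0.0776).

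CALR, the calcium-binding lectin chaperone calreticulin, had 8.96, 8.95 and 9.11 in BE(2)-C with JQ1, against 9.20, 9.32 and 9.33 with DMSO. Kelly cells had 7.86, 8.08 and 7.81 with JQ1, against 8.56, 8.56 and 8.18 with DMSO. The groups did not overlap in either line. CALR fell by 0.40 over both lines (SE 0.11, adjusted p = 0.0341), a call that 4 of 12 fits without 1 array kept, those without BE(2)-C DMSO replicate 1, BE(2)-C JQ1 replicate 3, Kelly DMSO replicate 3 or Kelly JQ1 replicate 2; the others gave 0.0511 to 0.102. It was also lost with a trended, robust prior (0.0743) and with the mean of its probe sets (-0.24, adjusted p = 0.175). Within lines CALR differed by -0.28 ± 0.15 in BE(2)-C (adjusted p = 0.49) and -0.52 ± 0.15 in Kelly (adjusted p = 0.0682). Its dimmer probe set gave -0.20 in BE(2)-C and 0.05 in Kelly.

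The remaining ER genes did not pass in any JQ1 comparison. HERPUD1, of ER-associated degradation, differed by -0.05 ± 0.29 in BE(2)-C and -0.62 ± 0.29 in Kelly, HSP90B1 (GRP94) by -0.20 ± 0.19 in BE(2)-C and -0.33 ± 0.19 in Kelly, and the disulfide isomerase PDIA4 by -0.02 ± 0.25 in BE(2)-C and -0.18 ± 0.25 in Kelly.

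XBP1, the factor that drives ER chaperones after splicing of its mRNA, had 8.24, 8.06 and 7.41 in Kelly with JQ1, against 9.49, 9.28 and 8.65 with DMSO. The BE(2)-C arrays had 9.09, 9.26 and 9.28 with JQ1, against 9.27, 10.21 and 9.93 with DMSO. The Kelly groups did not overlap, and in BE(2)-C they met at 1 array. XBP1 was 2.36-fold lower in Kelly (log2 -1.24 ± 0.28, adjusted p = 0.0207), which was lost without Kelly DMSO replicate 1 (0.105) or 2 (0.0785) or Kelly JQ1 replicate 3 (0.0819) and with only the Kelly arrays fitted (0.0574). Over both lines it fell by 0.92 (SE 0.20, adjusted p = 0.00993), which held in all 20 alternatives; the effect in BE(2)-C was -0.60 ± 0.28 (adjusted p = 0.356), and the difference of the effects was 0.64 (95% interval -0.23 to 1.51). Splice forms of XBP1 were not analysed here. CREB3L2, an ER-anchored bZIP factor, differed by -0.01 ± 0.31 in BE(2)-C and -0.17 ± 0.31 in Kelly.

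The level of the ER genes, and of other members, moved with the hybridization control signal of the arrays. The slope on that signal passed and was below 0 in 6 of the 7 ER genes, where 22.5% of all genes had such a slope. Over all 32 members 53.1% had a slope that passed in either direction, against 53.5% of all genes. The slope passed in all 4 transporters (3 below 0, 1 above). It passed too in DDIT4 (-0.54), ASNS (-0.39), TRIB3 (0.32), PYCR1 (0.23), PSAT1 (-0.22), XBP1 (-0.22) and ALDH1L2 (0.19). The values of these genes also carry this limit. The control signal was higher with JQ1 than with DMSO in all 3 Kelly pairs of equal number. So was the 3′ minus 5′ signal of GAPDH (0.25, 0.34 and 0.56 with JQ1, against 0.19, 0.16 and 0.45 with DMSO), and that of ACTB was highest in Kelly replicate 3 (2.24 with JQ1, 2.22 with DMSO), where the ER genes were lowest. The part of RNA quality in the Kelly values was not tested, and the fits with the control signal are given next. With the signal as a covariate, HSPA5 (-0.41, adjusted p = 0.0357), DNAJB9 (-0.81, 0.0346), CALR (-0.46, 0.0437) and SDF2L1 (-0.89, 0.0348) fell in Kelly, 4 of 7, with smaller fold changes than without it, where 7.79% of all genes fell against 4.73% without the covariate. Without the 3 arrays of highest signal (BE(2)-C DMSO replicate 1 and replicate 3 of both Kelly groups) 5 of 7 fell in Kelly, with HSPA5 at -0.84 (adjusted p = 0.0148) and HERPUD1 at -0.90 (0.00739), where 12.7% of all genes fell. Without Kelly DMSO replicate 3 alone 5 of 7 fell too, where 8.06% of all genes did. Other Kelly arrays gave fewer. Leaving out Kelly JQ1 replicate 1 alone gave 1 of 7 (median -0.8), where 4.43% of all genes fell. Leaving out Kelly DMSO replicate 1 or 2 gave 0 of 7 (medians -0.47 and -0.45), where 2.64% and 2.85% fell. Leaving out Kelly JQ1 replicate 2 or 3 gave 0 of 7 (medians -0.6 and -0.52), where 3.35% and 3.11% fell. The median of the 7 in Kelly was -0.41 with the covariate and -0.84 without the 3 arrays. In BE(2)-C it was -0.26 without the 3 arrays, with 7 of 7 below 0 and SDF2L1 passing.

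**Figure D5:**
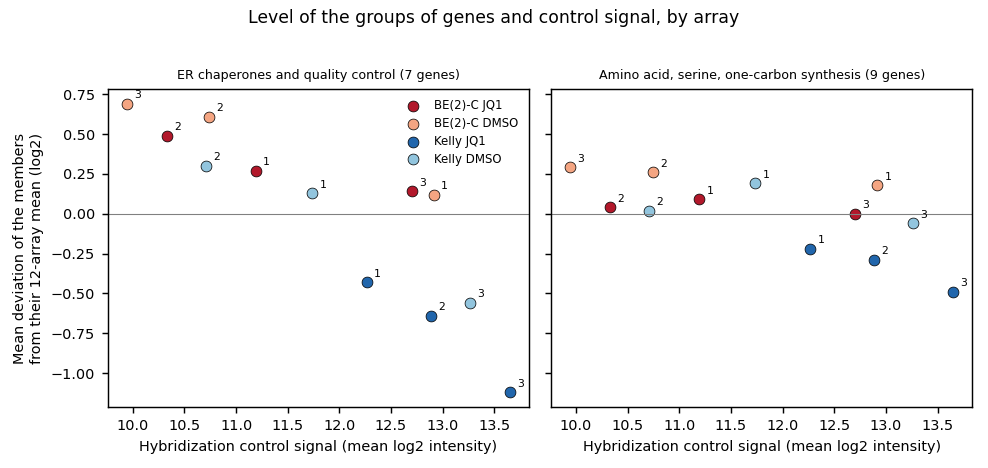
Mean deviation of the 7 ER genes (left) and of the 9 synthesis genes (right) from their 12-array means, against the mean log2 signal of the hybridization controls, 1 point an array with its replicate number. The ER level runs from 0.69 in BE(2)-C DMSO replicate 3 (signal 9.94) down to -1.12 in Kelly JQ1 replicate 3 (signal 13.65).

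Set against each other, synthesis and ER genes differed by about as much as single arrays varied when these are taken as unpaired. The median log2 fold change of the 9 synthesis genes minus that of the 7 ER genes was -0.26 in BE(2)-C (SD between arrays 0.25) and 0.30 in Kelly (SD 0.29). This SD is the spread of single arrays and not the error of a difference between groups of 3, so it does not test that difference. In Kelly the mean deviation of the ER genes was -0.73 ± 0.35 with JQ1, against -0.04 ± 0.46 with DMSO (SD, n = 3), and that of the synthesis genes was -0.33 ± 0.14, against 0.05 ± 0.13. In BE(2)-C the ER genes were at 0.30 ± 0.18 with JQ1, against 0.47 ± 0.31 with DMSO, and the synthesis genes at 0.04 ± 0.05, against 0.24 ± 0.06. By these means both roles fell by similar amounts in BE(2)-C, so the -0.26 there was seen with medians and not with means. The synthesis level of the JQ1 arrays lay below that of every DMSO array in each line, while the ER level overlapped in both lines. Within the Kelly pairs of equal number the ER genes changed by -0.57, -0.95 and -0.56 and the synthesis genes by -0.42, -0.31 and -0.43, so synthesis minus ER was 0.15, 0.63 and 0.13, above 0 in all 3 pairs. Single arrays moved the difference of the medians. In BE(2)-C it was -0.06 without BE(2)-C DMSO replicate 1 and -0.14 without BE(2)-C JQ1 replicate 2, and in Kelly it was 0.11 without Kelly DMSO replicate 2 and 0.60 without Kelly DMSO replicate 3. Leaving out the 3 arrays of highest signal gave -0.06 in BE(2)-C and 0.63 in Kelly.

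Under DMSO 6 of 32 members differed between the lines (18.8%), 4 higher and 2 lower in BE(2)-C, where 15.1% of all genes did, 7.2% higher and 7.89% lower. Higher in BE(2)-C were VLDLR (6.76 ± 0.27 in BE(2)-C, 5.47 ± 0.16 in Kelly, SD, n = 3), by 1.29 ± 0.19 (SE, adjusted p = 0.000354), and ASS1 (11.27 ± 0.20, 10.04 ± 0.23), by 1.24 ± 0.19 (adjusted p = 0.000505). CALR was higher there by 0.85 ± 0.15 (adjusted p = 0.00188) and PSAT1 by 0.86 ± 0.25 (adjusted p = 0.0359). SESN2 was lower in BE(2)-C (6.83 ± 0.13 in BE(2)-C, 8.04 ± 0.02 in Kelly) by 1.21 on the log2 scale (SE 0.20, adjusted p = 0.000878), and MTHFD2 was lower by 0.67 (SE 0.17, adjusted p = 0.0164). These groups did not overlap for any of the 6. Over all members 9 of 32 did not overlap, 5 higher and 4 lower in BE(2)-C, where 25.7% of all genes did not, 12.1% higher and 13.6% lower. The calls of VLDLR, ASS1, CALR and SESN2 held in all alternatives fitted. PSAT1 was lost without BE(2)-C DMSO replicate 3 (0.158) or Kelly DMSO replicate 1 (0.0833) or 3 (0.113), with only the DMSO arrays fitted (0.0742) and without the 3 arrays of highest control signal (0.0535), and MTHFD2 without BE(2)-C DMSO replicate 1 (0.0505) or 2 (0.059) or Kelly DMSO replicate 1 (0.0811). All 7 ER members were above 0 in this comparison, from 0.25 to 0.94 (median 0.45), with 1 of 7 passing. Their median was 0.12 without Kelly DMSO replicate 3, with 1 of 7 below 0. Without Kelly DMSO replicate 1 or 2 it was 0.54 or 0.67, and without 1 BE(2)-C DMSO array 0.32 to 0.61. The control signal was also unequal between the groups compared (11.20 in BE(2)-C with DMSO, 11.90 in Kelly with DMSO). So was the 3′ minus 5′ signal of ACTB (0.91 in BE(2)-C with DMSO, 1.67 in Kelly with DMSO).

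Genes of the same pathways that are not members were read from 5 further lists. Of 21 stress sensors and eIF2 factors, 0 passed limma's test in BE(2)-C (1 at an unadjusted p under 0.05) and 2 fell in Kelly: EIF2AK2, the kinase PKR, which had 6.28, 6.49 and 6.57 with JQ1, against 8.31, 8.98 and 7.90 with DMSO (-1.95 ± 0.34, adjusted p = 0.00391), and EIF2AK4, the amino acid sensing kinase GCN2, which had 6.23, 6.48 and 5.44 with JQ1, against 7.62, 7.59 and 7.93 with DMSO (-1.66 ± 0.22, adjusted p = 0.000792). Neither overlapped between groups, and both held in all 21 alternatives; their effects in BE(2)-C were -0.76 and -0.41 (adjusted p = 0.303 and 0.472), and the difference between lines did not pass for either (adjusted p = 0.386 and 0.138).

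Of 23 other genes tied to ATF4, MAP1LC3B, an autophagy protein, rose in BE(2)-C by 1.23 ± 0.19 (adjusted p = 0.00289), with 11.74, 11.72 and 11.76 with JQ1, against 10.36, 10.46 and 10.72 with DMSO. In Kelly SLC43A1, a neutral amino acid transporter, fell by 1.37 (SE 0.24, adjusted p = 0.00466), DDR2 by 1.42 (SE 0.25, adjusted p = 0.00425) and RRAGD, a Rag GTPase of mTORC1 signalling, by 0.90 (SE 0.24, adjusted p = 0.0401), the last of which held in 12 of 21 alternatives. The list's median was -0.10 in BE(2)-C and -0.06 in Kelly.

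Of 21 other genes of amino acid and one-carbon metabolism, MTHFD1L, the mitochondrial formate-producing enzyme downstream of MTHFD2, fell in both lines. It had 8.59, 8.56 and 8.35 in BE(2)-C with JQ1, against 10.27, 9.95 and 10.05 with DMSO, and 9.32, 9.21 and 8.48 in Kelly with JQ1, against 10.60, 10.40 and 10.59 with DMSO. The groups stood apart in both lines, with changes of -1.59 ± 0.21 in BE(2)-C (adjusted p = 0.000993) and -1.53 ± 0.21 in Kelly (adjusted p = 0.000865) that held in all 21 alternatives. GLDC, of the glycine cleavage system, fell in BE(2)-C by 1.22 (SE 0.19, adjusted p = 0.00347), and BCAT1, a branched-chain aminotransferase, fell in Kelly by 1.39 (SE 0.22, adjusted p = 0.0024); the difference between lines did not pass for either (adjusted p = 0.16 and 0.513).

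Of 29 other ER chaperone and quality control genes, 0 passed limma's test in either line (medians 0.11 in BE(2)-C and -0.19 in Kelly), while 5 in BE(2)-C and 3 in Kelly had an unadjusted p under 0.05. Of 6 other ER stress factors 0 passed it in either line, with 1 in BE(2)-C and 0 in Kelly at an unadjusted p under 0.05. Under DMSO 11 of the 29 ER genes were higher in BE(2)-C than in Kelly and 0 were lower, where 7.2% of all genes were higher. The 11 include HYOU1, PDIA3 and DNAJC3. The hybridization control signal and the 3′ minus 5′ signal of ACTB were unequal between these groups, so this count carries the same limit as that of the 7 ER members.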

How the data were processed

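Total RNA from 12 samples was hybridized to Affymetrix PrimeView arrays, whose probe sets read the 3′ part of transcripts. The values were made with RMA, per the submitters' processing notes, a background correction, normalization and probe summary of unstated version. The authors deposited linear intensity, and the medians of the arrays lay between 61.4 and 67.3. Log2 values had been planned for the tests, so log2 was taken here with no offset and no filter. A normalization that gives arrays like medians can remove a change in total RNA. Of 49395 probe sets, 44988 named 1 gene in the platform annotation; symbols were renewed by gene identifier from the table of GRCh38.p14, where 99.94% of them were found. The probe set of highest mean over the 12 arrays stood for a gene, for 18132 genes in all. The number of arrays limits the precision: within a line the SE of a log2 fold change was 0.21 in the median.

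Limma 3.58.1 under R 4.3.3 (lmFit, contrasts.fit, eBayes) fitted 4 group means per gene over all arrays, with two-sided p-values adjusted by Benjamini-Hochberg over all genes and a threshold of 0.05. Contrasts compared JQ1 with DMSO within BE(2)-C, within Kelly and on average, took the effect in BE(2)-C minus the effect in Kelly, and compared the lines under DMSO. Probe sets were fitted in the same way and adjusted over all probe sets that name 1 gene. On simulated data with 200 changed genes the Kelly contrast recovered 52.9% of genes changed 2-fold and 94.1% of those changed 4-fold, with 5.6% false calls. The simulated noise was independent between genes and arrays. In the real arrays 53.5% of all genes had a slope on the control signal that passed, so these rates need not hold for them. Residuals of same-numbered JQ1 and DMSO arrays correlated at 0.434, 0.228 and 0.515 in Kelly, which pairs them by the rule used here, so values with the replicate number as a block stand beside Kelly results that they change. The members, their roles and the further lists were chosen with earlier results of these data known. The text names all 32 members, HEXIM1 and MYCN as checks of the treatment, and from each further list up to 4 passing genes a line; SERPINI1, a further check, rose by 1.60 in BE(2)-C and 1.38 in Kelly. The 3 ER genes named for their level under DMSO fall outside that rule and were chosen after their values were seen. The epithelial marker list (5 of 5 measured, 4 of 5 below the median gene in all 4 groups) had a summed intensity of 270 to 309 in BE(2)-C with JQ1, against 381 to 528 in BE(2)-C with DMSO, and of 215 to 272 in Kelly with JQ1, against 249 to 393 in Kelly with DMSO. Up to 21 alternatives were fitted, 12 of them without 1 array each. The alternative that kept only genes at or above the median level tested 27 of 32 members. ATF5, DDIT3, CHAC1, VLDLR and ALDH1L2 were too dim for it. Promoter windows and coordinates are RefSeq's on GRCh38.p14.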

Additional observations from a re-analysis of the deposited data

Results flagged for a closer look

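The effect of JQ1 on ASS1 differed between the lines by 1.63 on the log2 scale, BE(2)-C minus Kelly, in the interaction test (adjusted p = 0.0155 in limma over all genes). ASS1 averaged 10.95 ± 0.0461 in BE(2)-C with JQ1 and 11.27 ± 0.197 with DMSO, and 8.08 ± 0.314 in Kelly with JQ1 and 10.04 ± 0.225 with DMSO (SD, n = 3 each). ASS1 passed in Kelly (-1.96, adjusted p = 6.74e-05) and did not pass in BE(2)-C (-0.33, 95% interval -0.73 to 0.08, adjusted p = 0.511). Over 20 alternatives the adjusted p of the difference ran from 0.00248 to 0.0622, and 16 of them kept the call.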

How the results depend on the processing

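Of 3239 values recomputed for members under an alternative, 99 passed where they had not and 97 no longer passed, with the sign kept. The sign turned in 150 values of 54 results; 146 of these passed in neither fit, with main log2 fold changes of up to 0.35 in size, and 4 passed in 1 of them. These 4 came from averaging the probe sets of a gene: SLC7A11 in BE(2)-C (-0.62), in Kelly (-0.94) and over both lines (-0.78), and PSPH under DMSO between the lines (1.02 in place of -0.16). The count of members called in Kelly, 4, was 7 with quantile normalization, 1 with only the Kelly arrays fitted, 12 with the control signal as a covariate and 14 without the 3 arrays of highest control signal, where 8.05%, 3.22%, 12.6% and 24.8% of all genes passed against 6.5%. In BE(2)-C, 3 became 6 with the mean of probe sets, 9 with the covariate and 9 without those 3 arrays, where 4.55%, 15.2% and 14.1% of all genes passed against 4.69%. The difference between lines had 2 calls, ASS1 and VLDLR, both with the covariate (3.78% of all genes) and without the 3 arrays (2.52%), and the levels under DMSO had 11 in each of these fits in place of 6 (26.5% and 22.5% of all genes). Synthesis minus ER in Kelly was 0.63 without the 3 arrays. The causes of these moves were not tested. Without 1 array at a time the counts ran from 1 to 5 in BE(2)-C, 1 to 11 in Kelly, 6 to 13 over both lines, 0 to 1 for the difference and 4 to 7 under DMSO, and synthesis minus ER from -0.31 to -0.06 in BE(2)-C and from 0.11 to 0.60 in Kelly. With the replicate number as a block 2 members passed in BE(2)-C, 5 in Kelly and 11 over both lines; in BE(2)-C PYCR1 was lost (adjusted p = 0.0685), and same-numbered arrays there correlated at -0.0706, 0.527 and -0.744, so the numbers do not pair them. The block was not run for the levels under DMSO, since it lies within a line. In the simulated data for Kelly, whose noise was independent between arrays, 52.9% of genes changed 2-fold were recovered. Smaller changes were not simulated.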
